A study of Sus scrofa with 21 samples.

Results

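The results below concern 8 genes of tumor necrosis factor (TNF) signalling in the pig heart after myocardial infarction (MI): the receptors TNFRSF1A and TNFRSF1B, the adaptors FADD and TRADD, the inhibitors CFLAR and NFKBIA, and the caspases CASP2 and CASP6. They were chosen by name, as every probe set to which the platform annotation gives 1 of these symbols. The choice was made with earlier results of these data known. This found 12 of the 24123 probe sets of the array, and all 8 genes had at least 1. Of the 12 probe sets, 10 lay above 3 on the log2 scale in at least 10 of the 21 arrays and were tested among 12180 such probe sets. The second probe sets of FADD and CASP6 did not pass and were not tested. Each gene is described by its main probe set, chosen for its mean level across all arrays, the highest of the gene's probe sets, and the second probe sets of CFLAR and CASP2 are described after it.

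Infarcts were made in female Landrace × Large White pigs by a permanent ligature of a marginal branch of the circumflex coronary artery. Infarct core (IC) tissue came from the middle of the left ventricular scar and remote myocardium (RM) from the non-infarcted septum of the same animals, taken 1, 4 or 6 weeks after the ligation, which the labels also give as 6, 30 and 45 days. There were 3 pigs at each stage and 3 other pigs for control myocardium (CM), described as sham-operated in the labels and as healthy in the methods. Each of the 7 groups holds 3 arrays, 1 for each pig. The methods give anaesthesia and other perioperative drugs for the infarcted pigs and state none for the controls.

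TNF is a cytokine released largely by activated macrophages. TNFRSF1A, found on most cells, has a death domain inside the cell, while TNFRSF1B, found mainly on leukocytes and endothelial cells, has none. Ligand-bound TNFRSF1A recruits TRADD, and from there the signal runs either to the transcription factor NF-kappaB, which NFKBIA holds in the cytoplasm, or to FADD, which gathers and activates caspase-8. CFLAR encodes c-FLIP, a relative of caspase-8 that lacks its protease activity and competes with it at FADD. In the infarcted heart, TNF signalling is known for both inflammatory and cell death responses. Caspases are switched on by cleavage of the protein, so an RNA level does not measure their activity.

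The tissues differed in make-up. All 7 tested of 10 measured macrophage and leukocyte markers were higher in IC than in CM at 1 week and at 4 weeks and 6 of 7 at 6 weeks, and the mean log2 level of the 10 genes was 5.46 to 5.69, 4.62 to 5.69 and 4.06 to 4.84 in IC at 1, 4 and 6 weeks, 3.42 to 3.99 in RM and 3.45 to 3.58 in CM. The defining markers CD68, CSF1R and LYZ had no probe set named by the platform, and CD14, PTPRC and ITGAM did not pass the filter. Of 7 fibroblast markers 6 were higher in IC than in CM at each stage, while 7, 9 and 5 of 12 cardiomyocyte markers were lower at 1, 4 and 6 weeks and 1, ACTC1, was higher at 1 week. The mean level of the 12 cardiomyocyte markers was 10.22 to 11.44 in IC, 11.64 to 11.79 in RM and 11.65 to 11.71 in CM, so cardiomyocyte transcripts were present in every IC sample. All 3 smooth muscle markers were higher in IC than in CM at each stage, with a mean level of 7.66 to 8.73 in IC, 5.72 to 6.44 in RM and 5.10 to 5.84 in CM. The 3′ minus 5′ signal of actin, a sign of RNA quality, was 1.99 to 2.62 in IC at 6 weeks and 1.51 to 1.64 in CM, and the poly-A spike-in controls averaged 5.41 to 5.92 in IC at 4 weeks and 4.45 to 4.88 in CM. The part of these markers and signals in the results was not tested. In whole tissue, fewer cells of a type and less RNA per cell cannot be told apart.

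One control array stood apart in NF-kappaB target genes and neutrophil markers. The mean log2 level of 9 NF-kappaB target genes was 3.81 to 4.56 in IC and 3.45 to 3.89 in RM, while in CM it was 6.18 in pig 30, 3.76 in pig 31 and 3.62 in pig 33. SELE, an endothelial adhesion molecule, lay at 0.34 to 1.78 in the 18 arrays of infarcted pigs, and in CM at 4.93 in pig 30, 0.69 in pig 31 and 0.63 in pig 33. The mean of 3 neutrophil markers was 3.49 in pig 30, against 1.07 in pig 31 and 1.56 in pig 33, whereas its 10 macrophage markers averaged 3.58, against 3.45 and 3.53. SELE was chosen after its values were seen. The array of pig 30 correlated with those of pigs 31 and 33 at r = 0.987 and 0.986, and pigs 31 and 33 with each other at 0.992. Arrays of a group correlated at r = 0.976 to 0.993 in the whole series, so over all probe sets pig 30 lay within the usual range. Because of its target gene levels, counts of the 8 genes against CM are given with and without pig 30. Calls in the TNF pathway lists that pig 30 changed are given for IC. Of the macrophage, fibroblast, cardiomyocyte and smooth muscle markers, the counts in IC were the same without it.

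In IC at 1 week all 8 genes differed from CM. The receptors, the adaptors and both caspases were higher, 6 of 8, where 26% of all tested probe sets were called higher, and CFLAR and NFKBIA were lower, 2 of 8, where 28.2% were called lower. At 4 weeks 5 genes were higher (background 25.3%) and 1, CFLAR, was lower (29.1%). At 6 weeks 3 genes, TNFRSF1A, TNFRSF1B and CASP2, were higher (21%) and CFLAR was lower (26%). The median log2 fold change (FC) of the 8 genes was 0.75, 0.59 and 0.34 at 1, 4 and 6 weeks, against -0.06, -0.06 and -0.08 over all tested probe sets. As the genes were chosen with earlier results of these data known, these counts and medians beside the background are a description, not a test. Without control pig 30 the counts were 5 higher and 1 lower at 1 week, 6 and 1 at 4 weeks and 3 and 1 at 6 weeks, where 49.4%, 50% and 41.8% of all tested probe sets were called in either direction.

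**Figure D1:**
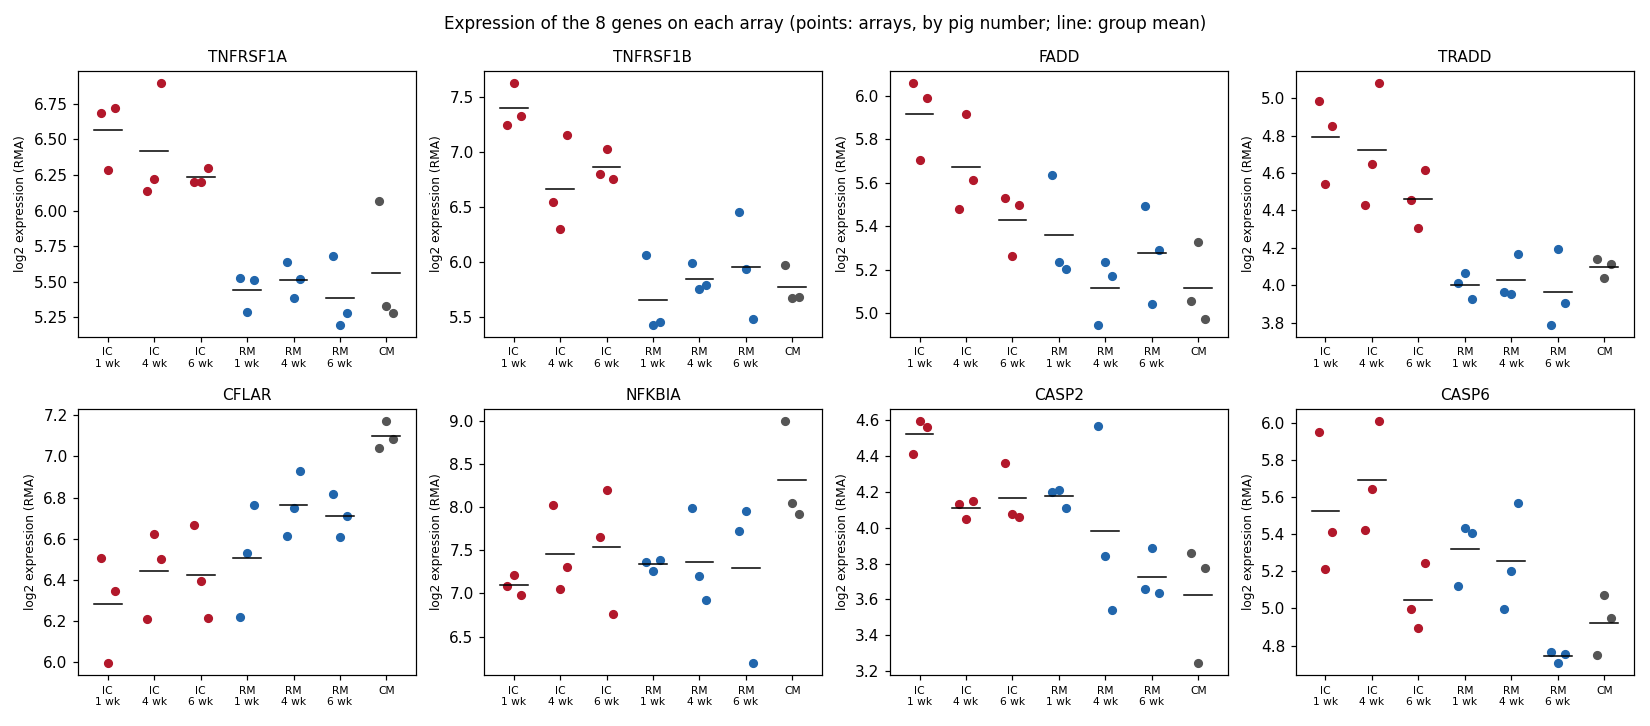
Log2 expression of the main probe set of each gene on the 21 arrays, with 3 pigs in each of the groups IC and RM at 1, 4 and 6 weeks and CM (points in order of pig number, line at the group mean). TNFRSF1A and TRADD lie higher in every IC array than in every RM and CM array, and CFLAR lies highest in CM, where its 3 arrays read 7.04, 7.17 and 7.08.

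TNFRSF1A, the death domain receptor, read 6.69, 6.28 and 6.72 in IC at 1 week, 6.14, 6.22 and 6.90 at 4 weeks and 6.20, 6.20 and 6.30 at 6 weeks. In RM it read 5.53, 5.29 and 5.51 at 1 week, 5.64, 5.39 and 5.52 at 4 weeks and 5.68, 5.20 and 5.28 at 6 weeks, and in CM 6.07 in pig 30, 5.33 in pig 31 and 5.28 in pig 33. No IC array overlapped with an RM or CM array, and pig 30 was the highest of the 12 non-infarct readings. Against CM the log2 FC in IC was 1.00 ± 0.22 (SE) at 1 week, a 2.01-fold difference, and 0.86 and 0.67 at the later stages (limma adjusted p = 0.000776, 0.00271 and 0.0164). Without pig 30 these were 1.26, 1.11 and 0.93. At 6 weeks the call was lost without control pig 31, control pig 33 or infarct pig 5, with log2 FC of 0.56, 0.53 and 0.64. Paired within pigs, IC exceeded RM by 1.12, 0.90 and 0.85 (adjusted p = 0.000407, 0.00147 and 0.00298), in 3 of 3 pigs at each stage.

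TNFRSF1B, the receptor of leukocytes and endothelium, gave the largest difference from CM among the 8 genes. It read 7.25, 7.63 and 7.33 in IC at 1 week, 6.55, 6.30 and 7.15 at 4 weeks and 6.80, 7.03 and 6.75 at 6 weeks. RM readings were 6.07, 5.43 and 5.45 at 1 week, 5.99, 5.75 and 5.79 at 4 weeks and 6.45, 5.93 and 5.48 at 6 weeks, and CM readings 5.97, 5.67 and 5.68. Its IC arrays all lay above those of CM, and above those of RM at the same stage. The log2 FC against CM was 1.63 ± 0.24 (SE) at 1 week, a 3.09-fold difference, and 0.89 and 1.08 at the later stages (adjusted p = 1.85e-05, 0.00419 and 0.0013). The paired difference from RM was 1.75, 0.82 and 0.91 (adjusted p = 0.000207, 0.0152 and 0.0116), positive in 3 of 3 pigs at each stage. Pig 22, with 1.36, carried much of it at 4 weeks: without that pig it was 0.55 (adjusted p = 0.121), and at 6 weeks it was 0.81 without pig 3 (adjusted p = 0.0687) and 0.72 without pig 5 (adjusted p = 0.0929).

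Over the 21 arrays the 2 receptors correlated at r = 0.885, and at 0.562 once the group means were removed. Among 6239 named probe sets, those most like TNFRSF1A were TIMP1 (r = 0.950), TPM3 (0.945) and CD163 (0.942), and those most like TNFRSF1B were CD163 (0.941), PIP4K2A (0.939) and GSDMD (0.936). TIMP1 encodes an inhibitor of matrix metalloproteinases, CD163 a scavenger receptor of macrophages and GSDMD the pore-forming gasdermin D. All these points share the 7 groups, so a common difference between IC and the other tissues raises every such r.

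FADD, which links the death domain to caspase-8, read 6.06, 5.70 and 5.99 in IC at 1 week, 5.48, 5.92 and 5.61 at 4 weeks and 5.53, 5.26 and 5.50 at 6 weeks. RM readings were 5.64, 5.24 and 5.21 at 1 week, 4.95, 5.23 and 5.17 at 4 weeks and 5.49, 5.04 and 5.29 at 6 weeks, and CM readings 5.06, 5.33 and 4.97. The IC arrays lay above CM and above RM at 1 and 4 weeks and overlapped with both at 6 weeks. Against CM the log2 FC was 0.80 ± 0.17 (SE, adjusted p = 0.000571), 0.55 (adjusted p = 0.00925) and 0.31 (adjusted p = 0.132) at 1, 4 and 6 weeks. At 4 weeks it was 0.43 (adjusted p = 0.0534) without pig 20. Against RM it was 0.56 (adjusted p = 0.00372), 0.55 (adjusted p = 0.00378) and 0.16 (adjusted p = 0.324), higher in 3 of 3 pigs at each stage. The second FADD probe set, below the filter, lay at 2.43 to 3.44 over the 21 arrays and did not follow the main one (r = 0.017).

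TRADD, the adaptor that binds TNFRSF1A first, read 4.98, 4.54 and 4.85 in IC at 1 week, 4.43, 4.65 and 5.08 at 4 weeks and 4.46, 4.31 and 4.62 at 6 weeks. The 9 RM arrays spanned 3.79 to 4.20 with a median of 3.96, and CM read 4.14, 4.04 and 4.11. Every IC array lay above every RM and CM array. Against CM the log2 FC was 0.69 ± 0.16 (SE), 0.62 and 0.36 at 1, 4 and 6 weeks (adjusted p = 0.00149, 0.0034 and 0.0736). The last of these passed only with cyclic loess scaling (0.40, adjusted p = 0.0458). Against RM it was 0.79 (adjusted p = 0.00244), 0.69 (adjusted p = 0.0049) and 0.50 (adjusted p = 0.0297), higher in 3 of 3 pigs at each stage. At 6 weeks this was 0.41 without pig 2 (adjusted p = 0.135) and 0.39 without pig 5 (adjusted p = 0.171). TRADD correlated with TNFRSF1A at r = 0.891 over the 21 arrays, and at 0.433 within groups.

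CFLAR, the competitor of caspase-8, went the other way on its main probe set. Its main probe set read 6.51, 6.00 and 6.34 in IC at 1 week, 6.21, 6.62 and 6.50 at 4 weeks and 6.67, 6.40 and 6.22 at 6 weeks. RM readings were 6.22, 6.53 and 6.76 at 1 week, 6.61, 6.75 and 6.93 at 4 weeks and 6.82, 6.61 and 6.71 at 6 weeks, and CM readings 7.04, 7.17 and 7.08. All 18 arrays of infarcted pigs lay below all 3 CM arrays. In IC the log2 FC against CM was -0.82 ± 0.17 (SE, adjusted p = 0.00053), -0.65 (adjusted p = 0.00318) and -0.67 (adjusted p = 0.00337) at 1, 4 and 6 weeks. In RM it was -0.59 (adjusted p = 0.0974), -0.34 (adjusted p = 0.325) and -0.39 (adjusted p = 0.349), none of which passed. IC was below RM by 0.22, 0.32 and 0.29 on the log2 scale, not past the threshold (adjusted p = 0.289, 0.132 and 0.184), and at 1 week it was lower in 2 of 3 pigs. Without pig 7 the difference at 1 week was -0.48 (adjusted p = 0.0305).

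The second CFLAR probe set did not follow the main one. It read 3.63, 3.43 and 3.84 in IC at 1 week, 4.23, 3.82 and 4.75 at 4 weeks and 4.06, 4.31 and 4.38 at 6 weeks. RM readings were 3.00, 2.82 and 2.99 at 1 week, 3.70, 3.61 and 3.86 at 4 weeks and 3.56, 3.38 and 3.08 at 6 weeks, and CM readings 4.17, 3.61 and 3.11. Against CM the log2 FC in IC was 0.00, 0.64 and 0.62 at 1, 4 and 6 weeks (adjusted p = 0.995, 0.0303 and 0.0392), so at the later stages both probe sets were called, in opposite directions. The 3 CM arrays spread widely and overlapped with IC, and without control pig 33 the log2 FC at these stages was 0.38 and 0.36 (adjusted p = 0.193 and 0.232). Against RM it was higher by 0.70, 0.54 and 0.91 (adjusted p = 0.00687, 0.023 and 0.00206), in 3 of 3 pigs at each stage. The 2 probe sets correlated at r = -0.16 over the 21 arrays. The mean of both probe sets differed from CM in IC by -0.41 at 1 week (adjusted p = 0.0343), still called lower, and by -0.01 and -0.03 at the later stages (adjusted p = 0.965 and 0.9). In RM at 1 week the second probe set also lay below all CM arrays, with a log2 FC of -0.70 (adjusted p = 0.167). A lower level of CFLAR in IC than in CM was thus seen on the main probe set alone at each stage. The lower mean of both probe sets in IC at 1 week came from the main one.

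**Figure D2:**
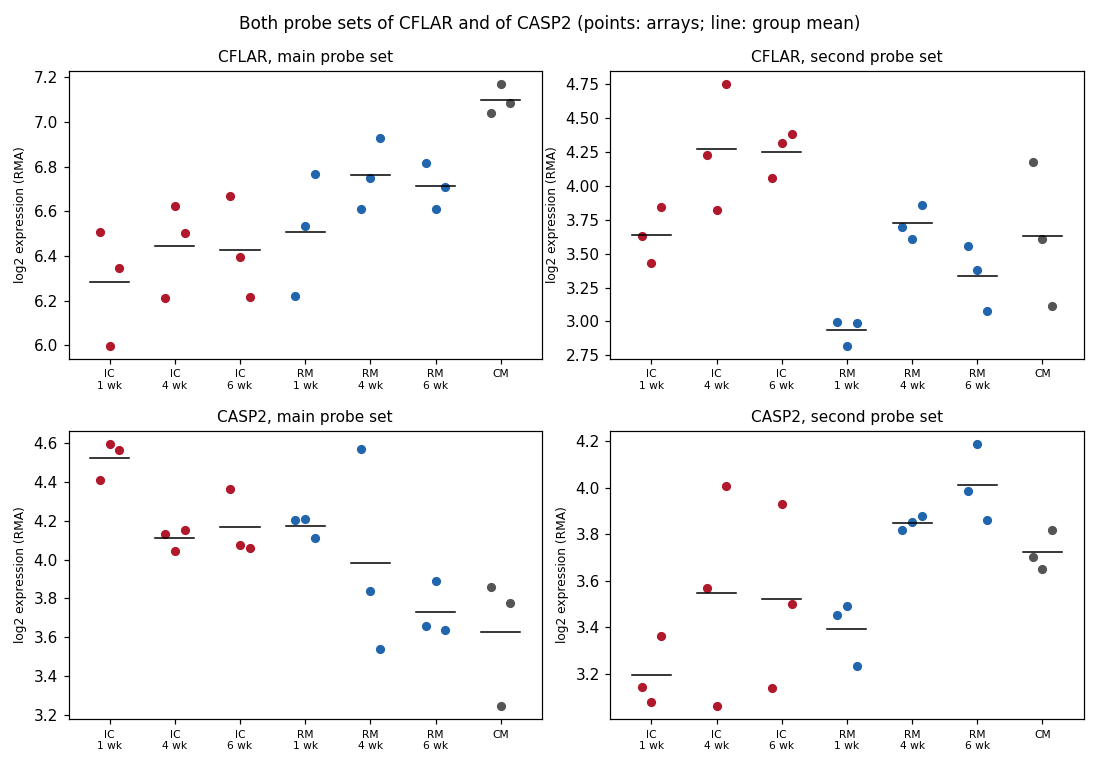
Log2 expression of the main and second probe sets of CFLAR and CASP2 on the 21 arrays (points, with a line at each group mean). For CFLAR the IC arrays lie below CM on the main probe set and at or above most RM arrays on the second one, and for CASP2 the 1 week IC arrays lie above CM on the main probe set and below it on the second one.

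NFKBIA, which encodes the NF-kappaB inhibitor I-kappaB-alpha and is itself a target of NF-kappaB, read 7.08, 7.21 and 6.99 in IC at 1 week, 8.03, 7.05 and 7.30 at 4 weeks and 7.65, 8.20 and 6.76 at 6 weeks. RM readings were 7.36, 7.26 and 7.39 at 1 week, 7.99, 7.20 and 6.92 at 4 weeks and 7.73, 7.95 and 6.20 at 6 weeks. In CM it read 9.00 in pig 30, 8.04 in pig 31 and 7.92 in pig 33. Only the 1 week arrays lay wholly below CM, in both tissues, and pig 18 at 4 weeks and pig 3 at 6 weeks reached CM levels in IC. The log2 FC in IC was -1.23 ± 0.43 (SE), -0.86 and -0.78 at 1, 4 and 6 weeks (adjusted p = 0.0221, 0.0983 and 0.142). Without pig 30 the value at 1 week was -0.89 (adjusted p = 0.116), and without IC pig 9 it was -1.17 (adjusted p = 0.0596). RM values were -0.98, -0.95 and -1.03 and were not called (adjusted p = 0.305, 0.275 and 0.328). Without pig 30 they were -0.64, -0.61 and -0.69, and the IC values at 4 and 6 weeks -0.52 and -0.44, none called. IC and RM of the same pigs differed by -0.24, 0.09 and 0.24, with 95% confidence intervals of -0.59 to 0.11, -0.26 to 0.44 and -0.11 to 0.59.

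Of the 9 NF-kappaB target genes, 8 were higher in pig 30 than in both other control pigs, 6 of them by over 1 on the log2 scale. In pig 30, 5 of the 9 exceeded all 18 arrays of infarcted pigs: ICAM1, VCAM1, SELE, CXCL2 and SOD2. SOD2 was not among the 8, at 10.35 in pig 30, 10.54 in pig 31 and 10.19 in pig 33. Its highest array of infarcted pigs read 10.26, so pig 31 exceeded them all too. PTGS2, IL6, CXCL8 and CCL2 in pig 30 lay within the range of the infarcted pigs. The genes named next were chosen after their values were seen. ICAM1, a leukocyte adhesion molecule, lay between 4.35 and 6.37 in the 18 arrays of infarcted pigs and, in CM, read 9.42 in pig 30, 4.98 in pig 31 and 5.33 in pig 33. CXCL2, a neutrophil chemokine, read at most 4.97 in the infarcted pigs and, in CM, 7.07 in pig 30, 4.20 in pig 31 and 3.21 in pig 33. VCAM1 and CCL2, an adhesion molecule and a monocyte chemokine, were also high in pig 30 (10.41 and 7.77), where pig 31 gave 7.85 and 3.49 and pig 33 gave 7.31 and 3.67. Of the 9 target genes 5 were tested, and against CM only SOD2 was called, lower at all stages (log2 FC -1.44, -1.92 and -0.996). Without pig 30 the log2 FC of CCL2 was 2.96, 3.41 and 2.67 and that of VCAM1 1.23, 1.64 and 1.70. Both were then called, while ICAM1 and CXCL2 were not. Pig 30 was set apart by high levels of ICAM1, VCAM1, CCL2, CXCL2 and other target genes, so leaving it out had to raise their log2 FC. The calls gained without it are therefore no separate evidence of a difference. Against RM of the same pigs, where controls play no part, CCL2 was higher in IC by 1.38, 1.78 and 1.91, VCAM1 by 1.74, 1.35 and 1.96 and ICAM1 by 0.83, 1.05 and 0.87, all called. CXCL2 was higher by 0.46, 1.23 and 0.52 and was called at 4 weeks only (limma adjusted p = 0.258, 0.00934 and 0.217). SOD2, a mitochondrial superoxide dismutase, went the other way, with a log2 FC against RM of -1.30, -1.38 and -0.64 (adjusted p = 0.000153, 9.7e-05 and 0.0119), and without pig 30 it was still called lower than CM (adjusted p = 2.55e-05, 1.41e-06 and 0.00113). NFKBIA was not called against RM.

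**Figure D3:**
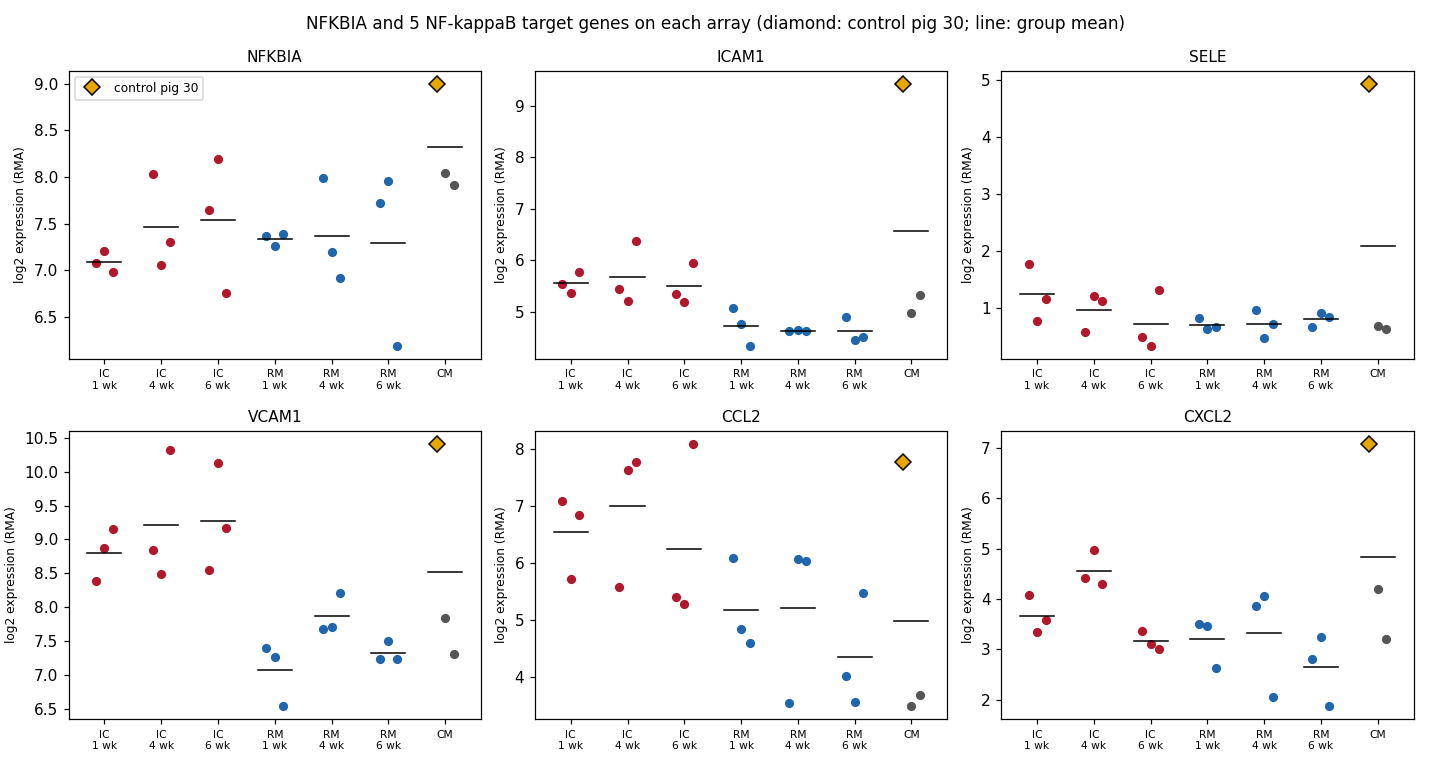
Log2 expression of NFKBIA and of the NF-kappaB target genes ICAM1, SELE, VCAM1, CCL2 and CXCL2 on the 21 arrays (points, with a line at each group mean and a diamond for control pig 30). Pig 30 is the highest array for all of these genes except CCL2, where 1 IC array at 6 weeks reads 8.08 and pig 30 reads 7.77.

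CASP2, an initiator caspase, read 4.41, 4.59 and 4.56 in IC at 1 week, 4.13, 4.05 and 4.15 at 4 weeks and 4.36, 4.08 and 4.06 at 6 weeks on its main probe set. RM readings were 4.20, 4.21 and 4.11 at 1 week, 4.57, 3.84 and 3.54 at 4 weeks and 3.66, 3.89 and 3.64 at 6 weeks, and CM readings 3.86, 3.25 and 3.78. All IC arrays lay above all CM arrays, as did the RM arrays at 1 week. Against CM the log2 FC in IC was 0.90 ± 0.20 (SE, adjusted p = 0.00119), 0.48 (adjusted p = 0.0522) and 0.54 (adjusted p = 0.0364), and at 4 weeks it was 0.60 (adjusted p = 0.0352) without pig 30. At 6 weeks the call was lost without control pig 31 (0.35) and without any 1 of the infarct pigs 2, 3 and 5 (0.44, 0.58 and 0.59). The RM values were 0.55 (adjusted p = 0.214), 0.36 and 0.10, and the paired differences of IC from RM 0.35, 0.13 and 0.44 (adjusted p = 0.141, 0.585 and 0.0755), none past the threshold.

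The second CASP2 probe set moved against the main one, with r = -0.53 over the 21 arrays. It read 3.14, 3.08 and 3.36 in IC at 1 week, against 3.70, 3.65 and 3.82 in CM. All IC arrays were below all CM arrays, with a log2 FC of -0.53 (adjusted p = 0.0354), a call that was lost without any 1 of the 3 control pigs and without pig 7 or 8 (-0.57 to -0.47). At 4 and 6 weeks the log2 FC was -0.18 and -0.20 (adjusted p = 0.476 and 0.433). The mean of the 2 probe sets differed from CM by 0.18 (adjusted p = 0.337) in IC at 1 week and by 0.17 (adjusted p = 0.393) at 6 weeks. A higher level of CASP2 thus held for its main probe set alone.

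CASP6, an executioner caspase, read 5.95, 5.21 and 5.41 in IC at 1 week, 5.42, 5.65 and 6.01 at 4 weeks and 5.00, 4.90 and 5.24 at 6 weeks. RM readings were 5.12, 5.43 and 5.40 at 1 week, 5.00, 5.20 and 5.57 at 4 weeks and 4.76, 4.71 and 4.76 at 6 weeks, and CM readings 4.75, 5.07 and 4.95. The IC arrays lay above CM at 1 and 4 weeks and overlapped with it at 6 weeks. The log2 FC was 0.60 ± 0.19 (SE, adjusted p = 0.0143), 0.77 (adjusted p = 0.00274) and 0.12 (adjusted p = 0.625). Pig 7 held the value at 1 week, which was 0.39 (adjusted p = 0.1) without it and 0.51 (adjusted p = 0.0598) without control pig 30. Against RM the differences were 0.20, 0.44 and 0.30 (adjusted p = 0.366, 0.063 and 0.19). The second CASP6 probe set, below the filter at 2.35 to 3.67, correlated with the main one at r = 0.77.

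**Figure D4:**
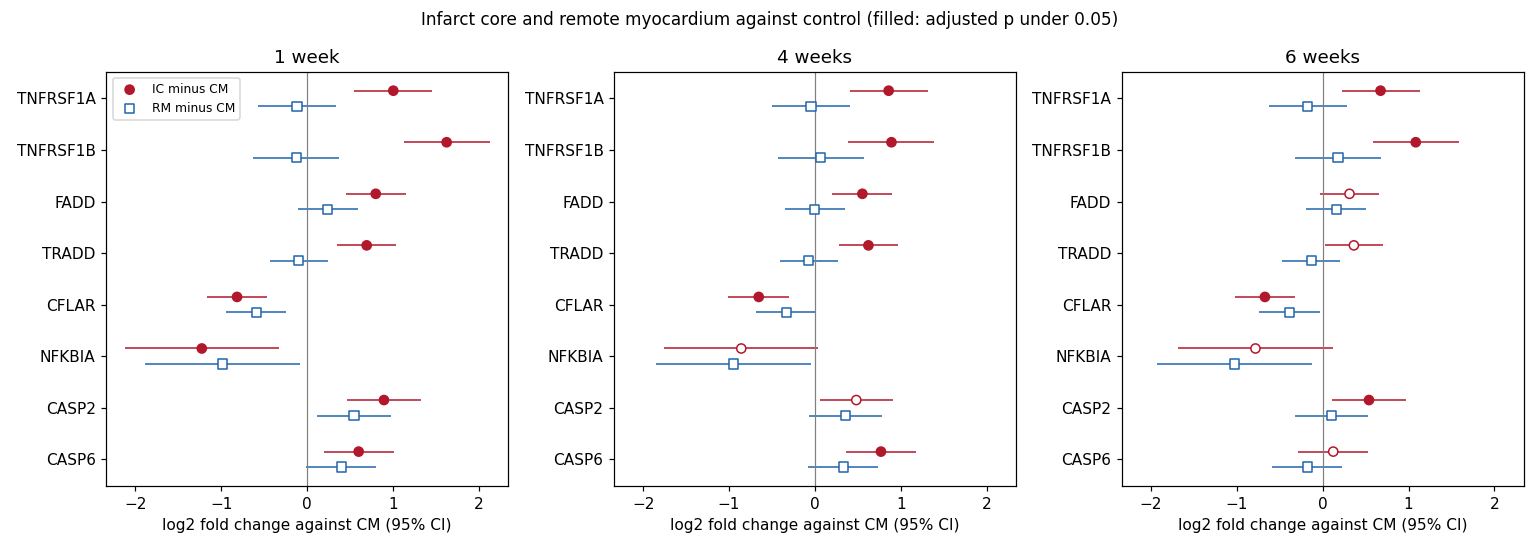
Log2 FC of the 8 genes against CM, with 95% confidence intervals, for IC (circles) and RM (squares) at 1, 4 and 6 weeks (3 arrays per group, filled where the adjusted p is under 0.05). The 18 filled symbols are all IC, and CFLAR and NFKBIA lie below 0 in both tissues at each stage.

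In RM none of the 8 genes was called against CM at any stage, where 1.13%, 1.08% and 0.197% of all tested probe sets were. At an unadjusted p under 0.05 limma gave 3 genes at 1 week (CFLAR, NFKBIA and CASP2), 1 at 4 weeks (NFKBIA) and 2 at 6 weeks (CFLAR and NFKBIA). The share of all tested probe sets at that unadjusted threshold was not computed, so these counts have no background. With array weights 2 were called at 1 week, CFLAR lower and CASP2 higher, and 1 at 4 weeks, NFKBIA lower, where the same weights called 4.57% and 13.4% of all tested probe sets. Without control pig 30 none was called at 1, 4 or 6 weeks, where 0.575%, 0.649% and 0.0164% of all tested probe sets were. The intervals still left room for changes: for TNFRSF1A in RM at 1 week it ran from -0.57 to 0.34, and for TNFRSF1B from -0.63 to 0.37.

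Between IC and RM of the same pigs, 4 genes were higher at 1 and at 4 weeks and 3 at 6 weeks (TNFRSF1A, TNFRSF1B and TRADD at all stages, FADD at the first and second), where 24.7%, 25.5% and 22.6% of all tested probe sets were called higher. None was called lower, where 27.9%, 29.3% and 25% were. The median difference of the 8 genes was 0.45, 0.50 and 0.37, against -0.08, -0.05 and -0.06 over all tested probe sets. These counts and medians, too, describe genes chosen with earlier results known. Without pig 5 the count at 6 weeks was 1. Since IC and RM come from the same hearts, this comparison does not rest on the control animals. IC is left ventricular scar and RM is septum, so infarction and heart region cannot be told apart in it. The methods do not state the region of the CM samples.

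**Figure D5:**
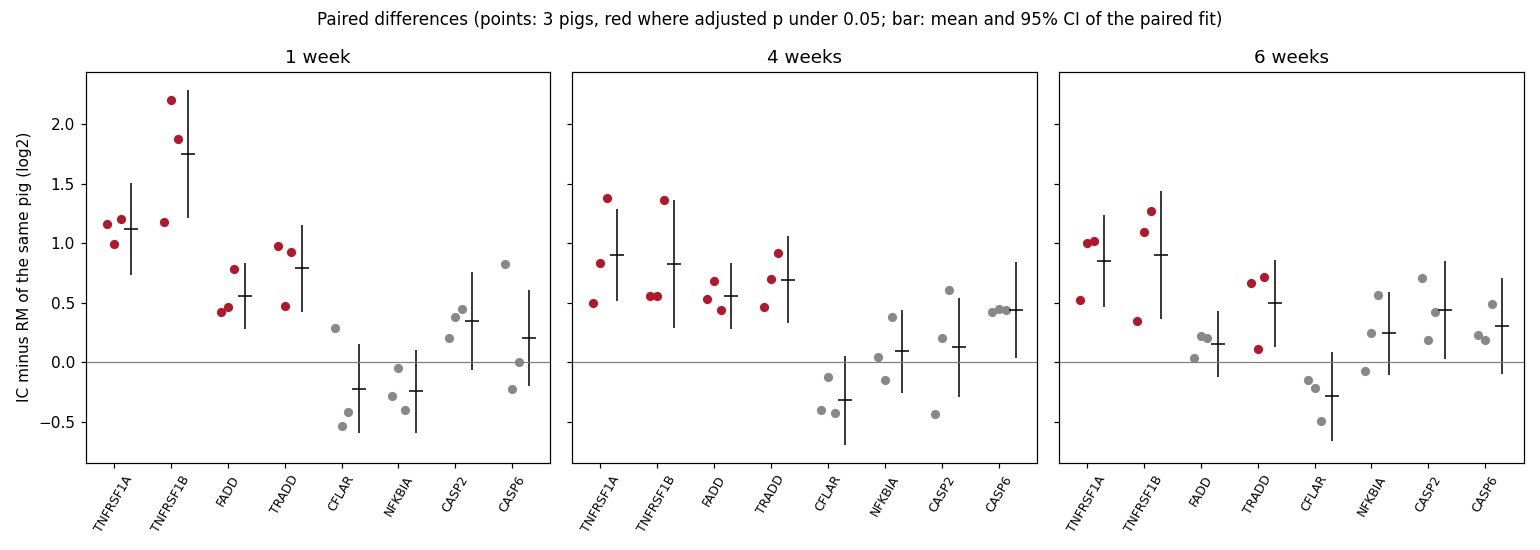
Difference of IC from RM in each of the 3 pigs of a stage (points, log2) red where the adjusted p is under 0.05 and grey otherwise, with the mean and 95% confidence interval of the paired fit in black. All points of TNFRSF1A, TNFRSF1B, FADD and TRADD lie above 0, while those of CFLAR are below 0 except for 1 pig at 1 week.

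The level of these genes was then followed over time. In IC none of the 8 was called between 4 weeks and 1 week (background 11.9%), between 6 weeks and 1 week (15.7%) or between 6 weeks and 4 weeks (3.88%), with 1, 3 and 1 genes at an unadjusted p under 0.05 in limma. TNFRSF1B was lower at 4 weeks than at 1 week by a log2 FC of -0.73 (adjusted p = 0.0523), FADD at 6 weeks than at 1 week by -0.49 (adjusted p = 0.0538) and CASP6 at 6 weeks than at 4 weeks by -0.65 (adjusted p = 0.0674), in each case with arrays that did not overlap. In RM the background was 1.59%, 0.181% and 0.632%, and again none of the 8 was called, with 0, 2 and 1 at an unadjusted p under 0.05. The change of the IC to RM difference between stages was called for none of the 8 either, where 0.0657%, 0.32% and 0% of all probe sets were called, with 1, 2 and 1 at an unadjusted p under 0.05. For TNFRSF1B that change was -0.93 at 4 weeks against 1 week, with an interval of -1.69 to -0.17 (adjusted p = 0.352). The shares of all tested probe sets at an unadjusted p under 0.05 were not computed, so the unadjusted counts over time have no background either. By group mean, TNFRSF1A was at 6.56, 6.42 and 6.23 in IC at 1, 4 and 6 weeks, at 5.39 to 5.51 in RM and at 5.56 in CM, and in that order of levels only IC at 6 weeks and CM were neighbours called apart. For CFLAR the order was IC at 6.28, 6.43 and 6.45, RM at 6.51, 6.71 and 6.76 and CM at 7.10, in which none of the neighbours that were compared was called apart.

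Other genes of the pathway were measured thinly. Of 7 TNF family ligands 5 had a probe set and 1 was tested: TNF itself read 1.72 in IC at 1 week and 1.73 in CM (means), below the filter. TNFSF10, the death ligand TRAIL, averaged 5.48 ± 0.68 in IC at 4 weeks, 4.74 ± 1.63 in RM at 4 weeks and 2.92 ± 0.39 in CM (SD, n = 3 each). Its log2 FC against CM was 2.56 (adjusted p = 0.000637) in IC at 4 weeks and 0.76 and 0.43 at 1 and 6 weeks, which did not pass. In RM at 4 weeks it was 1.82, not called. TNFSF10 in IC exceeded RM of the same pigs by 0.79, 0.74 and 0.70 at 1, 4 and 6 weeks, none called. Within IC it was higher at 4 weeks than at 1 week by 1.80 (adjusted p = 0.0381) and lower at 6 weeks than at 4 weeks by 2.13 on the log2 scale (adjusted p = 0.0346). Of 5 other receptors of the family 2 were tested, TNFRSF12A and TNFRSF21, and neither was called in IC or RM against CM or in IC against RM. FAS did not pass the filter, with means of 2.16 in IC at 1 week and 3.15 in CM.

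Of 19 further adaptors, kinases and ubiquitin enzymes 4 were tested, and in IC none was higher than CM while 2, 3 and 2 were lower at 1, 4 and 6 weeks. CYLD, a deubiquitinase that restrains NF-kappaB, had a log2 FC of -0.65, -1.01 and -0.84 (adjusted p = 0.00437, 0.000104 and 0.000855), and was also lower in RM at 1 week, by 0.76 on the log2 scale (adjusted p = 0.0446). The RM call of CYLD was not rechecked without control pig 30. TNIP1, a partner of the NF-kappaB inhibitor A20, had -0.98, -0.74 and -0.42, of which the first pair passed (adjusted p = 0.000267, 0.00283 and 0.0718). TAB1, an activator of the kinase TAK1, had -0.42 and -0.52 at the later stages (adjusted p = 0.0458 and 0.0178), both lost without control pig 30. Of 11 genes of NF-kappaB and its kinases 2 were tested. NFKBIB, a second I-kappaB, was lower than CM in IC at each stage, with -0.49, -1.02 and -0.63 (adjusted p = 0.0393, 0.000226 and 0.0125), and against RM with -0.57, -0.66 and -0.62. Its call against CM at 1 week was lost without control pig 30. Unlike NFKBIA, its RM arrays were near CM, with -0.36 to 0.08.

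Of 11 other caspases and partners 3 were tested, and all were called in IC against CM and against RM at each stage, 2 higher and 1 lower. CASP1, the inflammatory caspase that matures interleukin-1 beta, averaged 6.66 ± 0.22, 6.46 ± 0.67 and 5.07 ± 0.40 in IC at 1, 4 and 6 weeks and 3.15 ± 0.33 in CM (SD, n = 3 each). Its log2 FC was 3.51, 3.31 and 1.92 (adjusted p = 4.44e-08, 7.43e-08 and 5.72e-05), above that of any of the 8 genes. BID, which carries the caspase-8 signal to mitochondria, was higher by 1.00, 0.56 and 0.47 (adjusted p = 0.000258, 0.0179 and 0.0477), the later pair of which was lost without control pig 30. DIABLO, a mitochondrial protein that frees caspases from their inhibitors, had -0.39, -0.85 and -0.82 (adjusted p = 0.039, 0.00016 and 0.000371). Caspase-8 itself lay below the filter, with CASP8 means of 2.71 in IC at 1 week and 2.15 in CM.

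By likeness over the 21 arrays, the genes nearest to the adaptors were CBX3 (r = 0.904) for FADD and CAP1 (0.935) for TRADD, followed by CAPRIN1 (0.881) and TMEM106C (0.879) and by ARL6IP1 (0.931) and PQLC3 (0.927). GTPBP10 (0.866), GATC (0.859) and DBI (0.857) were nearest to CFLAR and FTSJ3 (0.862), STC1 (0.831) and CSNK1D (0.811) to NFKBIA. For the caspases they were SKIV2L (0.869), UCK1 (0.830) and PPAN (0.825) for CASP2 and MID1IP1 (0.832), POLE3 (0.820) and ORAI1 (0.813) for CASP6. Among the 8 genes themselves, CFLAR correlated negatively with CASP2 (r = -0.72) and TNFRSF1B (-0.64), while NFKBIA was near 0 with both receptors (-0.08 and -0.07). Once group means were removed, TRADD and CASP6 gave r = 0.685 and CFLAR and CASP2 -0.33.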

How the data were processed

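RNA of 21 myocardial samples was hybridised to GeneChip Porcine Genome Arrays, 1 array per sample. The authors deposited log2 expression values after RMA, which corrects background, applies quantile normalisation and summarises the probes of a set, so precision is limited by how many arrays there are. RMA compresses low levels, and a whole-array shift in RNA content cannot be seen after it. Nothing was rescaled for the main results.

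limma 3.58.1 in R 4.3.3 was run on the probe sets that exceeded 3 on 10 or more arrays. Comparisons with CM and between stages used 7 group means over 21 arrays (14 residual degrees of freedom), and IC against RM used 18 arrays with the pig as a block (6 residual degrees of freedom). Benjamini-Hochberg adjustment ran over all tested probe sets, separately for each comparison, and the threshold was an adjusted p of 0.05. An exact permutation test of 3 against 3 arrays cannot go below p = 0.1 and was not used. The pairing comes from the pig numbers in the labels. After removing group means, IC and RM arrays of the same pig correlated at r = 0.0714 to 0.491. In 9 of 9 pigs this was above the r of the IC array with RM arrays of the other pigs of that stage. Removing the group mean makes the 3 arrays of a group sum to 0, so these r are not independent.

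Names came from the platform annotation, which gives 1 symbol for 10099 probe sets, several for 198 and none for 13826. All 8 genes were named, with the probe set of highest mean as the main one, together with fixed lists of TNF pathway genes and cell type markers and the 3 probe sets most correlated with each gene. A probe set annotated to CFLAR and CASP10 was set aside. The 8 genes and the lists were chosen with earlier results of these data known. The fits were tested on simulated data. Filters, scaling, weights, blocks, thresholds, the summary of probe sets and each left-out array were tried as alternatives. The results without control pig 30 for the gene lists were added after seeing the data.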

Additional observations from a re-analysis of the deposited data

Results flagged for a closer look

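The difference between IC and RM, tested within pigs, was itself past the threshold for 4 genes and for the second CFLAR probe set. At 1 week it was 1.12 for TNFRSF1A, 1.75 for TNFRSF1B, 0.56 for FADD, 0.79 for TRADD and 0.70 for the second CFLAR probe set (log2, limma adjusted p = 0.000207 to 0.00687). At 4 weeks these values were 0.90, 0.82, 0.55, 0.69 and 0.54 in the same order (adjusted p = 0.00147 to 0.023). At 6 weeks TNFRSF1A gave 0.85, TNFRSF1B 0.91, TRADD 0.50 and the second CFLAR probe set 0.91 (adjusted p = 0.00206 to 0.0297). All were higher in IC than in RM in 3 of 3 pigs.

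There was also signal outside the tested probe sets of the 8 genes. The second CASP6 probe set, which did not pass the filter, was higher in IC at 4 weeks than in CM by 0.63 (adjusted p = 0.0369 in a fit without a filter). The probe set annotated to both CFLAR and another gene was higher in IC at 4 weeks than in CM by 0.72 (adjusted p = 0.00154 in the same fit). At 1 and 6 weeks its log2 FC was 0.19 and 0.22 (adjusted p = 0.379 and 0.326). Against RM of the same pigs it was higher at 1, 4 and 6 weeks by 0.70, 1.07 and 0.81 (adjusted p = 0.00092, 6.42e-05 and 0.000651). Which of its genes this probe set measured was not tested.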

How the results depend on the processing

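The 90 log2 fold changes of the 10 tested probe sets were recomputed 1242 times: 1170 stayed on their side of the threshold, most of them uncalled throughout, 60 lost a call, 12 gained one and 0 called values changed direction, while 27 uncalled values changed sign. Of the 35 called values, 19 never lost the call. The count in IC at 6 weeks against CM, 4 genes, was 2 with the mean of all probe sets of a gene and 2 at an adjusted p under 0.01. In RM against CM, 0 genes became 2 at 1 week and 1 at 4 weeks with array weights, which called 4.57% and 13.4% of all tested probe sets. Between IC at 4 weeks and 1 week, 0 became 1 with probe sets above 5 in at least 3 arrays, 1 with arrays centred on their median and 1 with array weights. Between IC at 6 weeks and 1 week, 0 became 1 with the stricter filter, 2 with array weights and 1 with the pig as a random replicate block (consensus correlation 0.207). The count of IC against RM at 6 weeks, 3 genes, was 1 at an adjusted p under 0.01. Leaving out 1 array, the counts against CM in IC were 6 to 8, 5 to 7 and 2 to 4 at 1, 4 and 6 weeks, with 2 at 6 weeks without control pig 31 or infarct pig 5. Those between IC stages were 0 to 1 in each contrast, with 1 without pig 22 (4 weeks against 1 week), pig 8 (6 against 1) or pig 5 (6 against 4). Those of IC against RM were 4 to 5, 3 to 4 and 1 to 2. Without the replicate block for IC against RM, the second CFLAR probe set at 4 weeks kept 0.54 but lost its call (adjusted p = 0.0626), and no other member's call changed. The cause of these changes was not tested. With 3 pigs per group, small differences could not be resolved.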
